A study of Mus musculus with 32 samples.

Results

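The comparison described here is of polysome-associated RNA from mouse embryonic fibroblasts (MEFs, connective tissue cells cultured from mouse embryos) under prolonged stress of the endoplasmic reticulum (ER) with the kinase PERK inhibited, against the same kind of RNA from untreated cells. It compares 8 of the 32 libraries of the series, chosen by their labels. There were 4 replicates of the group that received thapsigargin for 16 h with PERK inhibition during the last 4 h. The other 4 were replicates of the control at 0 h of thapsigargin. All genes were considered. Thapsigargin blocks the calcium pump of the ER, and the loss of ER calcium disturbs protein folding there. Both groups were grown in the same medium with serum. The mouse strain, which inhibitor was used and at what dose, how much thapsigargin was given, and whether controls received solvent were not given in sources used here. Cytosolic RNA was run on a sucrose gradient of 10 to 50%, and the fractions with more than 4 ribosomes per mRNA were kept. The 4 polysome libraries of cells given thapsigargin for 16 h without the inhibitor were used to show where the inhibitor group differed from them. The cytosolic libraries served to set the polysome change beside the change in mRNA. All 16 polysome libraries of the series, including those of 1 h of thapsigargin, entered the gene filter, the scaling and the estimate of spread.

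In ER stress, the sensors PERK, IRE1 and ATF6 are activated together. PERK phosphorylates the initiation factor eIF2, which lowers initiation on most mRNAs and raises it on a few with upstream open reading frames, among them the mRNA of the transcription factor ATF4. ATF4 and its partner CHOP then raise genes for amino acid supply and tRNA charging, while ATF6 and the spliced form of XBP1 raise chaperones and other parts of the secretory pathway. A PERK inhibitor added late acts on the first of these branches in cells that are already stressed.

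The control polysome libraries held 30.74 to 35.64 M counts and the inhibitor libraries 35.72 to 41.78 M. Library composition differed between the groups, with TMM scaling factors of 0.9217 to 0.9419 in control and 1.091 to 1.112 with the inhibitor, and every change below is relative to the rest of its library. A general loss of polysomes cannot be seen in such data, and fewer cells and less RNA per cell cannot be told apart. Of the 12 fibroblast markers, 9 exceeded 1 CPM (reads scaled to library size) in both groups, led by Col1a2. Their summed level was 6294 to 8149 CPM in control and 2793 to 3142 CPM with the inhibitor. Markers of other cells summed to at most 27.8 CPM in control for leukocytes, 12.3 CPM for endothelium, 33.5 CPM for neural cells, 2.68 CPM for epithelium and 0.333 CPM for erythroid cells, and to 7.21 to 48.4 CPM for muscle, led by Acta1. The markers Adgre1, Tie1, Cldn3, Rbfox3 and Myog were at 0 in both groups, but other members of their lists were detected. In control, 4 of 9 leukocyte, 2 of 9 endothelial, 3 of 10 neural, 1 of 10 epithelial and 2 of 10 muscle markers reached 1 CPM. Their leading members outside muscle were Cd14 (19.5 CPM), Flt1 (9.52 CPM), Map2 (21.5 CPM) and Krt19 (2.09 CPM). One control library, replicate 3, stood apart. Its values deviated from the group median with an SD of 0.207 on the log2 scale over 6638 genes with at least 20 CPM, against 0.0604, 0.0563 and 0.128 in the other control libraries and 0.0445 to 0.0822 in the inhibitor libraries. These deviations fell with the GC content of the transcript in that library (Spearman's rho across genes -0.773) and rose with it in control replicate 4 (0.793). A link with GC content was not particular to control. In replicates 1 to 4 rho was 0.794, -0.549, 0.311 and -0.57 with the inhibitor, and 0.694, -0.723, -0.678 and 0.746 at 16 h without it.

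Most of the measured mRNAs differed between the groups. Of 12065 genes tested, 9300 (77.1%) were called at an adjusted p under 0.05 by edgeR's quasi-likelihood test, 4442 of them higher (36.8%) and 4858 lower (40.3%) with thapsigargin and the inhibitor. Without control replicate 3 the calls were 4544 higher and 4867 lower. Which direction had more calls depended on the processing. With only the 8 libraries of both groups 4626 were higher and 4468 lower, and with upper-quartile scaling 5104 and 4266. Correction for coding length gave 4770 higher and 4512 lower, and correction for GC content 5003 and 4800. Changes of at least 2-fold were more often losses, with 894 genes higher (7.41%) and 1713 lower (14.2%). The median log2 change over all genes was -0.03. Short mRNAs lay somewhat above long ones: the median was 0.32 for coding sequences of up to 400 nucleotides (509 genes) and -0.13 for those over 3000 (1727 genes). With so many genes called, a count of calls in a gene group is read against these shares.

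Promoter sequence elements of the ATF6/XBP1 and ATF4 branches are shown here because most of the listed genes that carry them moved in opposite directions. That choice followed the outcome, so the counts below describe these genes and are not a test of the elements. The first is the ER stress response element, searched as CCAAT and CCACG with 9 bases of any kind between them, on both strands of the RefSeq promoter windows (GRCm38.p6, 250 bases before to 50 bases after the annotated start). It was found in 37 of 27025 genes with a window (0.137%) and in 7 of the 23 ER chaperone and folding genes that had one (30.4%). All 7 were called higher, with a median log2 change of 1.84. Windows were available for 9281 of the genes tested, and 16 of these held the element. Of the 16, 12 were called higher (75.0%) and 3 lower (18.8%), against 36.8% and 40.3% of all genes tested. The 12 include the 7 chaperone and folding genes, and 1 gene each of the lists of ER-associated degradation and of translocation. In the stretches below, written along the gene's own strand with the element in capitals, Hspa5, Hsp90b1, Calr, Dnajc3, Creld2 and Pdia6 encode ER chaperones or folding factors.
Hspa5 (chr2:34772001-34772067, plus strand): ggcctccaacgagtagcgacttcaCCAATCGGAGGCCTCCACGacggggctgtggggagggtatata
Hsp90b1 (chr10:86705509-86705575, minus strand): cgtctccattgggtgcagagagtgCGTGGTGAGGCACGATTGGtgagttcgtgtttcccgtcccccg
Calr (chr8:84847051-84847117, minus strand): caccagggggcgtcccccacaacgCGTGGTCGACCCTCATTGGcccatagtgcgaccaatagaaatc
Dnajc3 (chr14:118937803-118937869, plus strand): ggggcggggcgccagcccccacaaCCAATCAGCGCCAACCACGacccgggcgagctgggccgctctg
Creld2 (chr15:88819496-88819562, plus strand): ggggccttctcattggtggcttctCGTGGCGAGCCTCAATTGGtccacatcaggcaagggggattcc
Pdia6 (chr12:17266467-17266533, plus strand): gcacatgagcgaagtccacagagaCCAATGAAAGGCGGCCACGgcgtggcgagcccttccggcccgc

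The second is the C/EBP-ATF response element, searched as TGATGNAA on both strands, which ATF4 binds together with C/EBP partners. It was found in 1219 of 27025 genes (4.51%) and in 253 of the 9281 tested (2.73%), of which 33.2% were called higher and 46.6% lower, against 36.8% and 40.3% of all genes tested. Their median log2 change was -0.21. Among the ATF4 and CHOP target genes 12 of 32 with a window held it (37.5%), of which 11 were called lower and 1 higher, with a median log2 change of -1.33. A match of either element describes the letters in the window, not a bound site. In the stretches below the element is in capitals, and the Slc7a11 stretch holds it on both strands. They are from Atf3, Chac1, Slc7a11, Vldlr, Fgf21, Asns and Herpud1, all of which were lower with the inhibitor.
Atf3 (chr1:191183412-191183467, minus strand): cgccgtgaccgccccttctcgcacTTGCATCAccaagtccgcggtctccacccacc
Chac1 (chr2:119351025-119351080, plus strand): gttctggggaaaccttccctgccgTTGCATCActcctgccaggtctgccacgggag
Slc7a11 (chr3:50443629-50443684, minus strand): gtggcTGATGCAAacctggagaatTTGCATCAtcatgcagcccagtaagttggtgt
Vldlr (chr19:27216796-27216851, plus strand): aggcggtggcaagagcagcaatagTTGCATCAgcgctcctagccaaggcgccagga
Fgf21 (chr7:45615598-45615653, minus strand): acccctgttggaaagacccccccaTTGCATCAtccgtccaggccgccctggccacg
Asns (chr6:7693210-7693256, minus strand): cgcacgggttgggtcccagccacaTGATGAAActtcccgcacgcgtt
Herpud1 (chr8:94386293-94386348, plus strand): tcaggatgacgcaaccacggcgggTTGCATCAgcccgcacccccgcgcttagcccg

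Atf4 and several of its targets were below the untreated level in polysomes after the inhibitor, while Ddit3 and PERK itself (Eif2ak3) were above it. Of 14 ER stress genes followed as a panel, 9 were lower than control and 5 higher with the inhibitor. In the 16 h group without inhibitor, measured against the same control libraries, 13 were higher and 1 lower (backgrounds of 42.3% and 42.9% over all genes). Atf4 (chr15:80255184-80257541, plus strand, GENCODE annotation of GRCm38) measured 101.3, 105.6, 108 and 104.5 CPM in the control libraries and 58.1, 55.5, 54.2 and 52.5 CPM with the inhibitor, against a mean of 1096 CPM at 16 h without it. The groups did not overlap, and the log2 change from control was -0.93 ± 0.0399 SE (edgeR's quasi-likelihood test, adjusted p = 2.72e-14). Atf3, a stress-induced transcription factor downstream of ATF4, measured 34.5, 33.4, 39.6 and 33.4 CPM in control and 5.02, 5.51, 4.46 and 5.34 CPM with the inhibitor, 6.92-fold lower, where 16 h without inhibitor gave 394 CPM. Trib3, a pseudokinase gene that CHOP and ATF4 induce, measured 160.1, 165, 130.1 and 174 CPM in control and 18.1, 16.9, 17.8 and 15.5 CPM with the inhibitor, a 9.22-fold difference.

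Ddit3, which encodes CHOP, was above control. It measured 3.005, 3.55, 3.35 and 3.95 CPM in control and 10.1, 10.7, 9.13 and 9.99 CPM with the inhibitor. Every inhibitor library lay above every control library, 2.87-fold on average (log2 1.52 ± 0.0958 SE), at a level far below the 422 ± 44.4 CPM (SD, n = 4) of 16 h without inhibitor. Chac1, a glutathione-degrading enzyme of the CHOP programme, was 3.25-fold lower than control at 9.01 ± 0.926 CPM, and Slc7a11, the cystine transporter, went from 165 ± 16.3 to 22.8 ± 1.66 CPM. Asns, asparagine synthetase, was 1.87-fold lower than control. Herpud1, a membrane component of ER-associated degradation with inputs from several stress branches, held 1207, 1195, 1191 and 1207 CPM in control and 614, 609, 587 and 580.3 CPM with the inhibitor, 2.01-fold lower.

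Both regulatory subunits of the eIF2 phosphatase were lower. The constitutive one, Ppp1r15b (chr1:133131143-133139783, plus strand), measured 584, 568, 650.5 and 526 CPM in control and 56.6, 58.0, 58.4 and 63.9 CPM with the inhibitor, a 9.83-fold difference. It was lower in cytosolic RNA too (log2 -2.49), and the polysome loss exceeded the cytosolic one (log2 difference -0.83 ± 0.0970 SE, adjusted p = 3.06e-06 for the interaction in edgeR). The induced subunit, Ppp1r15a, went from 30.5 ± 1.93 to 18.8 ± 1.25 CPM (log2 -0.70), and its cytosolic RNA did not pass the test (log2 -0.03, adjusted p = 0.728 in edgeR). Of the eIF2 kinases, the interferon-inducible PKR (Eif2ak2) rose 3.06-fold from 8.98 ± 1.02 CPM and HRI (Eif2ak1) 1.59-fold, PERK itself (Eif2ak3) rose 1.15-fold, and GCN2 (Eif2ak4) did not pass the test (log2 0.11 ± 0.0510 SE). Dnajc3, an ER cochaperone known to restrain eIF2 kinases, rose 3.58-fold.

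**Figure D1:**
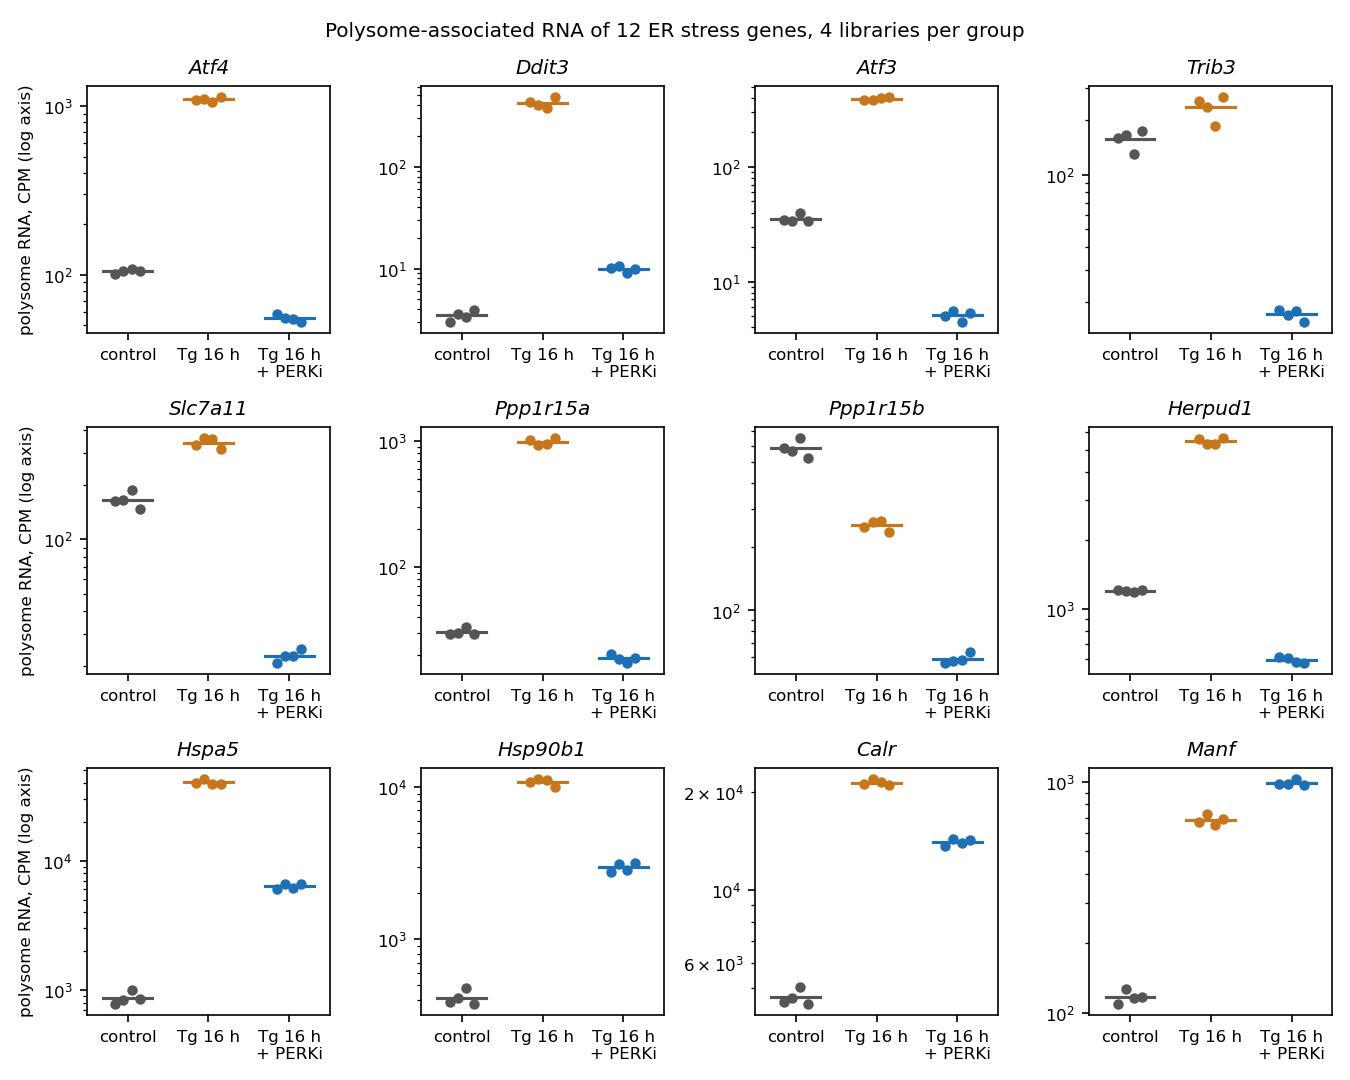
Polysome RNA levels of 12 ER stress genes in CPM on log axes, with 1 point per library and a bar at the mean of 4 libraries for control, thapsigargin (Tg) for 16 h, and 16 h with PERK inhibition (PERKi) in the last 4 h. Atf4, Atf3, Trib3, Slc7a11, Ppp1r15a, Ppp1r15b and Herpud1 lie below control with the inhibitor, while Hspa5, Hsp90b1, Calr and Manf lie above it.

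The mRNAs with regulatory upstream open reading frames did not move as a group. Of 24 measured of 26 listed, 9 were called higher, 9 lower and 6 were not called, with a median of 0.07. Fgf21, a hormone gene induced by ATF4, went from 16.8 CPM in control to 0.950 CPM with the inhibitor. Slc7a1, the cationic amino acid transporter, fell by 2.15 on the log2 scale, while Ddit3, Pptc7 and Cdkn1b were higher by 1.52, 0.84 and 0.65.

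Genes of amino acid supply were mostly below control. Among 40 ATF4 and CHOP target genes, 25 were called lower and 10 higher, with a median log2 change of -0.70. At 16 h without inhibitor the same list had 32 higher, 6 lower and a median of 1.01. Vldlr, a lipoprotein receptor, measured 214, 204, 236 and 193 CPM in control and 25.9, 28.2, 27.8 and 28.3 CPM with the inhibitor, 7.68-fold lower. Gpt2, a mitochondrial alanine transaminase, was 4.00-fold lower, and Sesn2, a stress-induced regulator of mTORC1, 4.20-fold lower. Members on the other side included Slc3a2, the shared heavy chain of several amino acid exchangers, which rose 2.26-fold from 1111 ± 56.8 CPM, and the proapoptotic Bcl2l11, which rose 2.51-fold.

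Of 20 plasma membrane amino acid transporters 15 were lower and 3 higher (median -1.01). At 16 h without inhibitor the same list had 10 higher and 8 lower (median 0.23). Slc1a3, a glutamate and aspartate transporter, had the lowest change of the list, from 388, 393, 451 and 379 CPM in control to 22.8, 23.4, 23.7 and 23.5 CPM with the inhibitor, 17.2-fold lower. It was also low at 16 h without inhibitor, at 45.2 CPM, 8.92-fold below control. The neutral amino acid transporters Slc1a4 and Slc1a5 fell 6.58-fold and 5.66-fold. Slc1a5 lost more in polysomes than in cytosolic RNA, where its log2 change was -1.16 (interaction -1.37 ± 0.0833 SE, adjusted p = 1.19e-09 in edgeR).

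The aminoacyl-tRNA synthetases charge tRNAs with amino acids, and most were below control. Of 20 cytosolic enzymes 12 were lower and 4 higher (median -0.47), and of 17 mitochondrial ones 13 were lower and 2 higher (median -0.75). Cars, for cysteine, measured 108, 109.4, 118.7 and 112.7 CPM in control and 27.4, 28.6, 26.9 and 28.7 CPM with the inhibitor, 4.02-fold lower. Mars, for methionine, was 3.84-fold lower, Yars and Sars, for tyrosine and serine, were 2.16-fold and 1.74-fold lower, and Wars, for tryptophan and also inducible by interferon, rose 1.71-fold. Of 13 measured genes of serine synthesis and one-carbon metabolism 8 were lower and 3 higher, with Mthfd2 and Psat1 2.76-fold and 2.56-fold lower and Aldh1l2 2.02-fold higher. With offsets corrected for coding length, 8 cytosolic synthetases in place of 4 were called higher.

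The folding machinery of the ER was above control in the same libraries. Of 29 ER chaperones and folding enzymes, 20 were called higher and 6 lower, with a median log2 change of 0.63. Manf, a secreted ER stress protein, had the highest change among genes with at least 20 CPM in both groups. It measured 109.3, 126, 115.7 and 117 CPM in control and 978, 981, 1028 and 973 CPM with the inhibitor, 8.45-fold higher (log2 3.08 ± 0.0521 SE, adjusted p = 1.11e-20 in edgeR). Hspa5 (chr2:34771970-34777547, plus strand), which encodes the ER chaperone BiP, measured 785, 836, 1002 and 850.4 CPM in control and 6020, 6655, 6186 and 6625 CPM with the inhibitor, 7.34-fold higher. Hsp90b1, the ER form of HSP90, measured 390.1, 416, 479.7 and 379 and 2777, 3095, 2868 and 3165 CPM, 7.15-fold higher. In each of these genes every inhibitor library lay far above every control library.

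Other members spread widely. Sdf2l1, an ER cochaperone factor, rose 7.66-fold, Creld2 5.46-fold, Hyou1, a large ER HSP70 relative, 4.93-fold, and Dnajb9, an ER cochaperone of BiP, 3.98-fold. The calcium-binding lectin chaperone Calr rose 2.995-fold from a high level of 4696 ± 262 CPM, and the disulfide isomerase Pdia6 2.84-fold. P4hb, the most studied disulfide isomerase, did not pass the test (log2 -0.05 ± 0.0347 SE). Sil1, a nucleotide exchange factor of BiP, and Serpinh1, the collagen chaperone, were 1.95-fold and 1.42-fold lower.

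Further steps of the secretory pathway were also mostly higher. ER-associated degradation had 17 of 25 measured members higher and 6 lower (median 0.50), with Vimp, a selenoprotein of the retrotranslocation complex, 3.93-fold and Derl1 1.76-fold higher. Translocation and N-glycosylation had 27 of 39 higher and 10 lower (median 0.42), among them Srp14 of the signal recognition particle (2.17-fold) and Sec11c of the signal peptidase (2.95-fold), while Alg1, a mannosyltransferase, was 2.90-fold lower. ER to Golgi transport had 30 of 38 higher and 3 lower (median 0.40). The COPII coat gene Sec23b measured 33.1, 33.4, 36.5 and 33.8 CPM in control and 105.6, 108, 106.9 and 107.2 CPM with the inhibitor, 3.13-fold higher, and Bet1, a SNARE of that step, rose 3.37-fold. The KDEL receptor gene Kdelr1 was 1.68-fold lower.

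Genes of ER calcium handling were split, 7 higher and 12 lower of 20 measured. Atp2a3, a calcium pump of the family that thapsigargin blocks, measured 1.80, 1.81, 2.08 and 2.69 CPM in control and 35.2, 32.1, 33.1 and 33.8 CPM with the inhibitor, 15.9-fold higher. The broadly expressed pump Atp2a2 did not pass the test (log2 -0.10 ± 0.04997 SE). Stim2, a sensor of ER calcium, was 5.33-fold lower and the mitochondrial calcium uniporter Mcu 2.36-fold lower. At 16 h without inhibitor the calcium list had 9 higher and 9 lower than control. There Atp2a3 was 31.7-fold higher, Stim2 4.93-fold lower and Mcu 2.14-fold lower. Of the 10 regulators of the IRE1, XBP1 and ATF6 branches, 3 were higher and 7 lower. Ern1, which encodes IRE1, went from 39.9 ± 1.61 to 30.3 ± 0.614 CPM. Xbp1 went from 184 ± 10.5 to 204 ± 5.65 CPM with libraries that overlapped, and its small rise (log2 0.15) was lost with offsets corrected for coding length (log2 0.08, adjusted p = 0.188 in edgeR). Gene-level counts do not tell spliced from unspliced Xbp1.

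**Figure D2:**
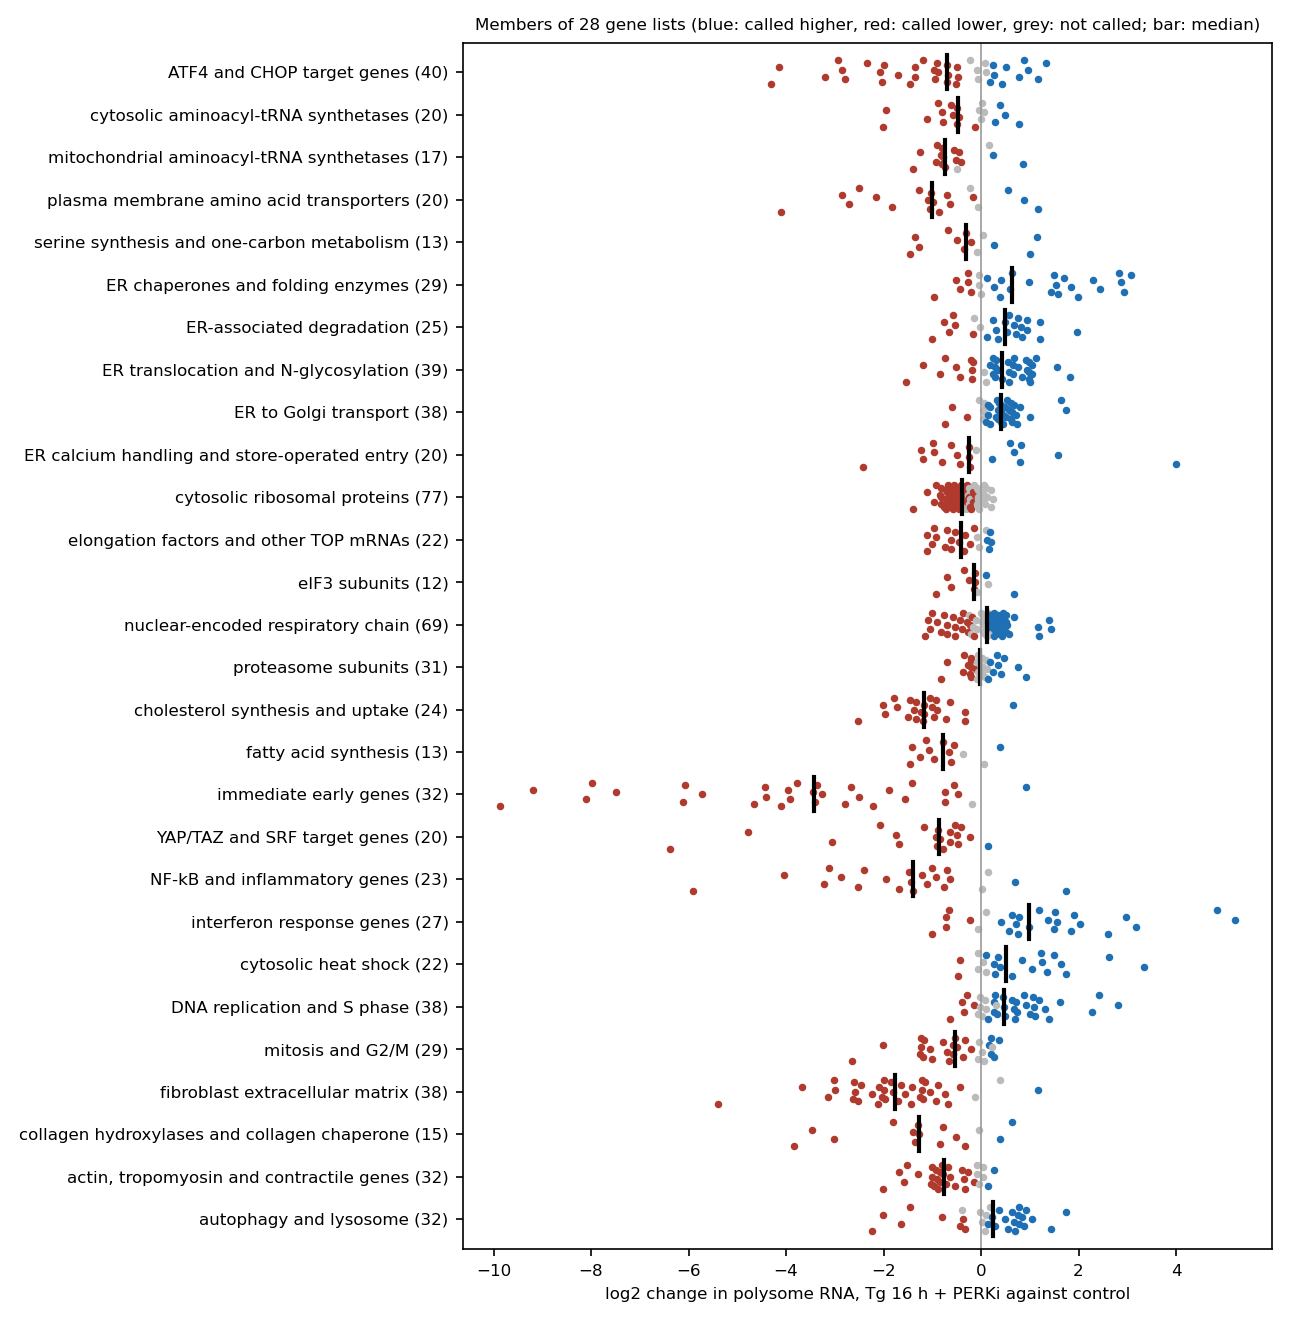
Log2 change in polysome RNA of each measured member of 28 gene lists (number measured in brackets), with a black bar at the list median and colour for the call. The lists of ER chaperones, ER-associated degradation, translocation and ER to Golgi transport centre above 0 (medians 0.40 to 0.63), and amino acid, lipid, matrix and immediate early lists centre below it.

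A difference between both 16 h groups was tested directly, inhibitor against no inhibitor, in the same fit. Over all genes 5085 were higher with the inhibitor (42.1%) and 4910 lower (40.7%). The lists fell into distinct patterns when their medians against the shared control were set side by side. For cytosolic tRNA synthetases the median was 1.46 without and -0.47 with the inhibitor, and 19 of 20 were lower with the inhibitor than without it. For the ATF4 and CHOP targets 36 of 40 were lower with it. For ER chaperones the medians were 0.85 and 0.63, and the direct test called 14 higher and 11 lower, so that this group was not shifted one way. Hspa5, Hsp90b1 and Hyou1 were lower with than without the inhibitor (log2 -2.66, -1.85 and -1.20), Sdf2l1 and Dnajc3 did not pass the test (log2 0.07 ± 0.0741 SE and -0.08 ± 0.0578 SE), and Manf and Creld2 were higher (log2 0.53 and 0.95). For translocation and N-glycosylation 23 of 39 were higher with the inhibitor and 10 lower.

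The genes that differed most between both 16 h groups lay on either side of control. Atf3, Ddit3, Ppp1r15a and Fgf21 were among the lowest with the inhibitor, together with Sash1, a scaffold protein gene, and Cass4, a docking protein gene of focal adhesions. Cass4 stood at 25.2 CPM without the inhibitor, 0.0239 CPM with it and 0.315 CPM in control. Sash1 measured 169, 171, 158 and 165 CPM without the inhibitor, 4.39, 4.67, 4.67 and 5.16 CPM with it and 13.2, 13.9, 14.7 and 13.2 CPM in control. At the other end were Hspb1, Aqp1, Wisp2, Cnn2, Syt13 and Layn. The water channel gene Aqp1 measured 553, 539.7, 519 and 555 CPM in control, 4.99, 5.19, 5.54 and 5.47 CPM without the inhibitor and 93.8, 85.4, 85.3 and 82.0 CPM with it, and the small heat shock gene Hspb1 29.6, 34.7, 23.4 and 38.5, then 5.27, 4.48, 3.38 and 6.197, then 87.0, 80.2, 85.1 and 71.8 CPM. Aqp1 thus remained 6.25-fold below control with the inhibitor, and Hspb1 was 2.57-fold above it. Cnn2, an actin-binding calponin, stood at 528, 25.9 and 340.0 CPM in the same order, and remained 1.55-fold below control.

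**Figure D3:**
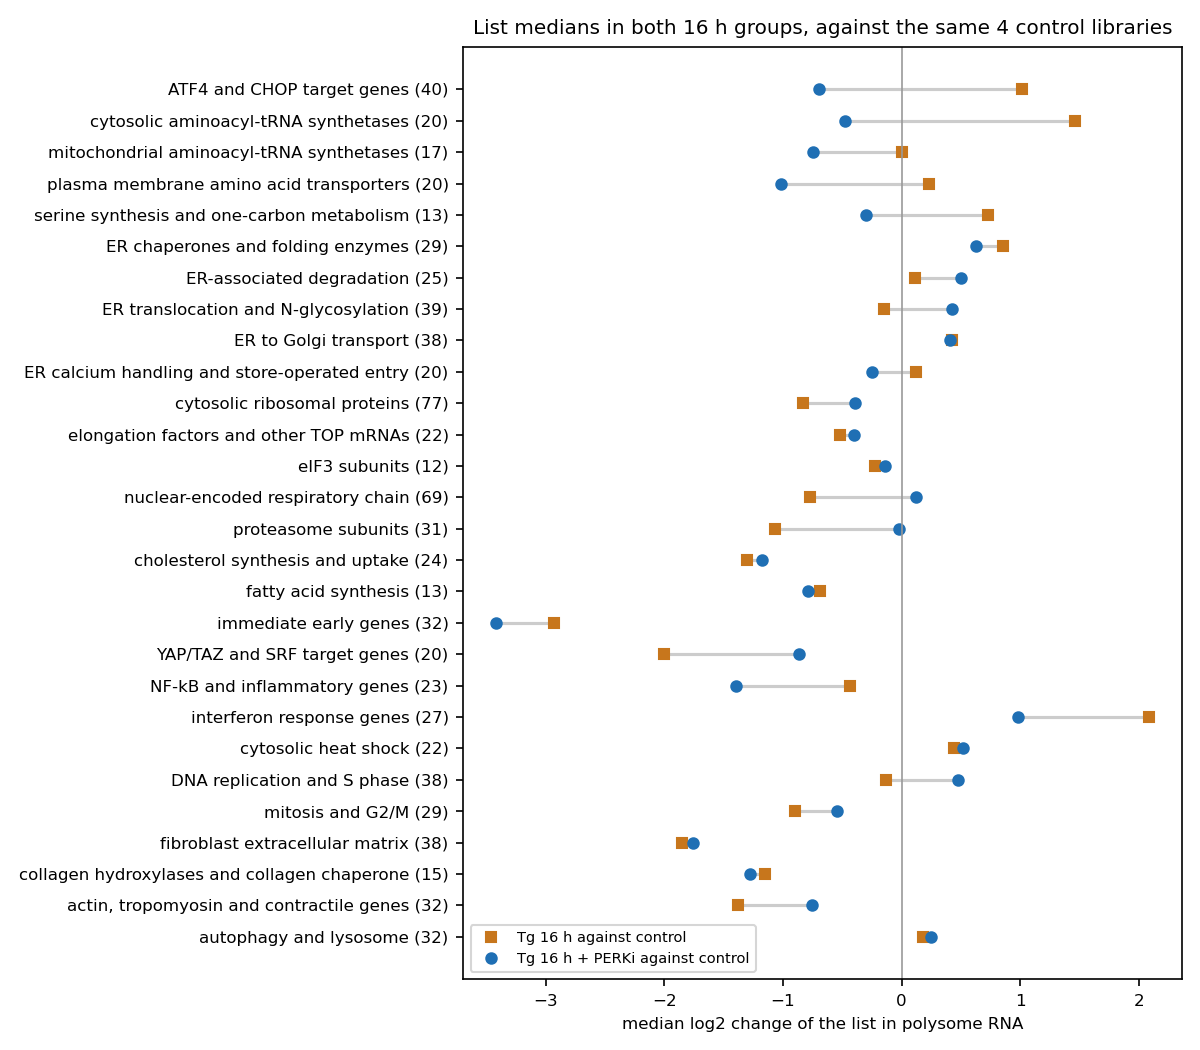
Median log2 change of 28 gene lists in polysome RNA at 16 h of thapsigargin without (squares) and with (circles) PERK inhibition, each against the same 4 control libraries, with the number of measured members in brackets. The circles of the ATF4 and CHOP targets (-0.70) and cytosolic tRNA synthetases (-0.47) lie left of 0 and their squares (1.01 and 1.46) right of it, while those of immediate early, cholesterol and matrix genes lie left of 0 in both.

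The mRNAs of ribosomal proteins moved in opposite directions in polysome and cytosolic RNA at the median. These mRNAs start with a terminal oligopyrimidine (TOP) motif, which couples their translation to mTOR signalling. Of 77 measured cytosolic ribosomal protein genes, 52 were lower in polysome RNA, none was higher and 25 were not called, with a median of -0.40. In cytosolic RNA of the same samples 74 of the 77 were higher and 1 lower (median 0.79), against 38.1% higher and 35.2% lower over all 12366 genes tested there. The ratio of polysome to cytosolic RNA, here called translational efficiency, was lower for 72 of the 77 and higher for none (median -1.21), where 27.1% of 12561 genes were lower, 16.3% higher, and the median of all genes was -0.12. The ER chaperone and folding genes, higher in both kinds of RNA at the median, had 15 of 29 lower in translational efficiency and 1 higher (median -0.23), among them Calr (-0.51), Sdf2l1 (-0.47) and Pdia6 (-0.37).

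Rpl3 (chr15:80077791-80091868, minus strand), of the large ribosomal subunit, measured 1814, 1820, 1874 and 1773 CPM in control polysomes and 830.3, 836, 826 and 861 CPM with the inhibitor, 2.17-fold lower, while its cytosolic RNA rose by 0.78 on the log2 scale. Rps4x, of the small subunit, measured 3205, 3354, 3765 and 3120 and 1228, 1328, 1260 and 1271 CPM, 2.64-fold lower, with a cytosolic change of 0.42. Their translational efficiency fell by 1.93 and 1.84. Rps6 and Rpl6 were 1.77-fold and 1.65-fold lower in polysomes. Counts of these genes are uncertain, since their many processed pseudogenes can take up reads.

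Against 16 h without inhibitor, 57 ribosomal protein genes were higher and 4 lower. The polysome loss was thus smaller with the inhibitor than without it for most of them, the medians against the shared control being -0.83 and -0.40. Rpl3 was an exception, lower with than without it by 0.41. The number called lower than control was 68 with offsets corrected for coding length, 47 with offsets corrected for GC content (which called 2 higher), and 55 without control replicate 3.

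Elongation factors and other TOP mRNAs were also mostly below control, with 15 of 22 lower in polysomes, 4 higher, and 19 of 22 lower in translational efficiency. Against 16 h without inhibitor they were split, unlike the ribosomal protein genes, with 8 higher and 9 lower. The elongation factor Eef1a1 measured 10790, 10700, 12500 and 11110 CPM in control and 5278, 5484, 5070 and 5115 CPM with the inhibitor, 2.15-fold lower, while its cytosolic RNA rose by 0.84. At 16 h without inhibitor Eef1a1 stood at 12580 ± 526 CPM in polysomes. Eef1g, a subunit of the exchange factor of EF1A, was 2.17-fold lower. Of 12 measured eIF3 subunits, which recruit the small ribosomal subunit, 8 were lower and 2 higher, and 9 were lower in translational efficiency. Eif3f and Eif3h, both also listed as TOP mRNAs, fell 1.896-fold and 1.63-fold. With upper-quartile scaling or with GC-corrected offsets the eIF3 subunits called lower were 5.

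**Figure D4:**
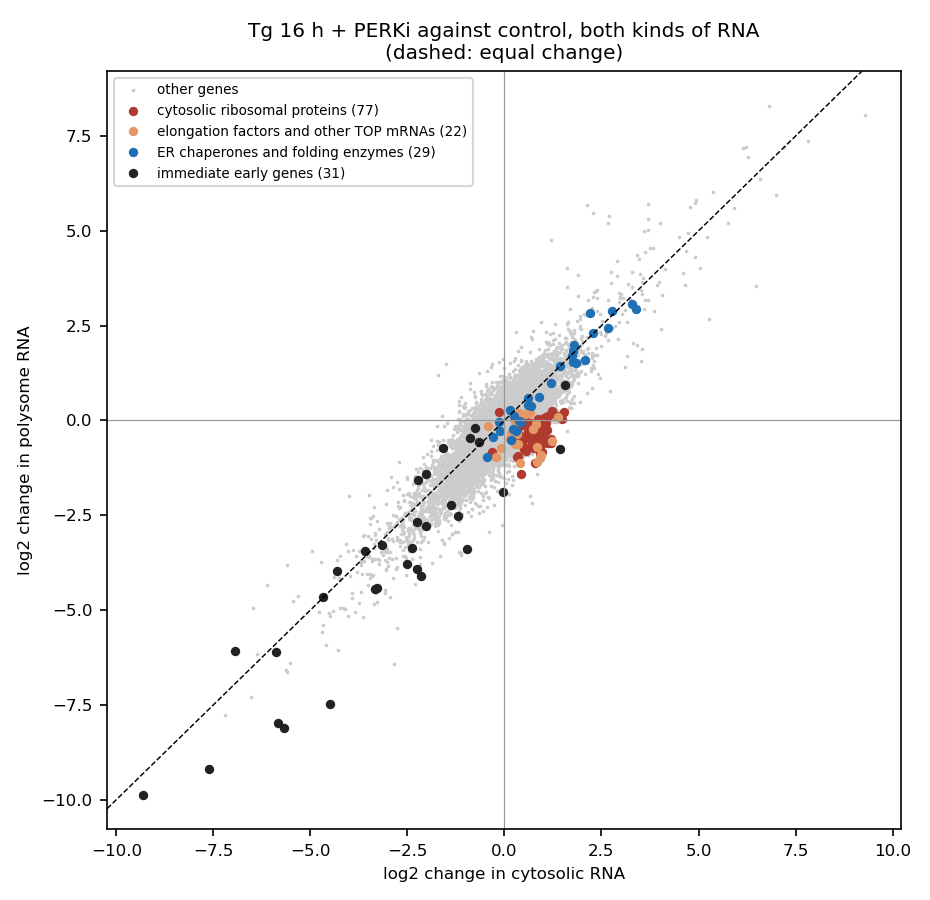
Log2 change with thapsigargin and PERK inhibition against control in cytosolic RNA (horizontal axis) and polysome RNA (vertical axis), 1 point per gene, with 4 gene lists in colour and a dashed line of equal change. Ribosomal protein genes lie right of 0 and below the line (medians 0.79 cytosolic and -0.40 polysome), and ER chaperone genes lie above 0 on both axes at the median (0.88 and 0.63).

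Genes of the respiratory chain and the proteasome showed no common direction against control. Of 69 nuclear-encoded respiratory chain genes 31 were higher, 20 lower and 18 not called (median 0.12). This direction depended on coding length: with length-corrected offsets 15 were higher, 29 lower, and the median was -0.16. Atp5b, of ATP synthase, was 2.21-fold lower, and Cycs, cytochrome c, 2.71-fold higher. Of 31 proteasome subunits 9 were higher, 11 lower and 11 not called, with Psmd1 1.89-fold higher and Psmc3 1.76-fold lower. With upper-quartile scaling, which moved the median of all genes from -0.03 to 0.07, 14 proteasome subunits were called higher, and the list's median of -0.02 became 0.08. Against 16 h without inhibitor, 58 of the 69 respiratory chain genes and 24 of the 31 proteasome subunits were higher.

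Genes of growth factor and adhesion responses were depleted in polysomes, most of them at 16 h without inhibitor too. Of 32 immediate early genes, which serum and growth factors switch on within minutes, 30 were lower and 1 higher, with a median log2 change of -3.42. At 16 h without inhibitor 26 of the 32 were lower than control and 5 higher (median -2.93). The zinc finger factor Egr1 measured 950.3, 980.4, 875 and 993 CPM in control and 3.91, 3.05, 4.46 and 3.61 CPM with the inhibitor, 253-fold lower. Egr3 went from 343 to 0.362 CPM, Egr2 from 43.5 to 0.0722 CPM and Fos from 56.0 to 0.197 CPM. At such low levels the size of a fold is uncertain, and levels are given in its place. The nuclear receptor Nr4a1 went from 431 ± 68.2 to 2.40 ± 0.278 CPM and Dusp6, a phosphatase of ERK, from 112.6 ± 2.53 to 1.62 ± 0.119 CPM.

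The same genes were low in cytosolic RNA, where 28 of the 32 were lower. Egr1 and Nr4a1 fell further in polysomes than in cytosolic RNA, with interactions of -2.18 ± 0.103 and -3.02 ± 0.234 on the log2 scale (SE). Junb, a partner of Fos, varied widely in control: 429.8, 545, 206 and 764 CPM in control and 38.4, 27.8, 35.3 and 26.6 CPM with the inhibitor, its lowest control value being that of replicate 3. The groups still did not overlap (log2 -3.93 ± 0.521 SE). Myc, a driver of growth, went from 405, 419.5, 359 and 479 CPM to 42.9, 41.0, 38.8 and 37.6 CPM, 10.4-fold lower, where 16 h without inhibitor gave 614 ± 85.2 CPM. The difference between both 16 h groups for Myc was -3.94 ± 0.122 on the log2 scale (adjusted p = 8.03e-14 in edgeR). Jund was higher than control (log2 0.92), a call that was lost without control replicate 3.

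Targets of YAP/TAZ and SRF, factors that respond to cell spreading and actin, had 19 of 20 members lower (median -0.87). In cytosolic RNA 17 were lower with the inhibitor (median -0.94). At 16 h without inhibitor 16 of the 20 were lower than control in polysomes and 2 higher (median -2.00), with Ctgf and Cyr61 at 11.3 and 172 CPM. Ctgf, a matricellular protein gene, measured 768, 788, 853 and 809.6 CPM in control and 9.98, 9.64, 9.86 and 9.002 CPM with the inhibitor, 83.7-fold lower, and its relative Cyr61 6469, 6552, 6840 and 6859 and 242, 246, 241 and 240.4 CPM, 27.6-fold lower. Among genes with at least 20 CPM in both groups, low log2 changes were also those of Angptl2 (-5.16), a secreted angiopoietin-like protein gene, and Errfi1 (-4.96), a feedback inhibitor of the EGF receptor, beside Cyr61 (-4.79). Errfi1 measured 1531, 1487, 1706 and 1421 CPM in control and 48.6, 51.8, 47.5 and 49.2 CPM with the inhibitor. Of 23 measured NF-kB and inflammatory genes 19 were lower and 2 higher (median -1.40). The lower ones included the chemokine gene Cxcl1, 60.2-fold lower, Lif, 16.5-fold lower, and Ptgs2, the inducible cyclooxygenase, 8.66-fold lower. Without the inhibitor 16 of the 23 were lower than control and 4 higher (median -0.43). Genes that nearly disappeared included Esm1, Id1 and Prss46, at 20.02, 21.6 and 17.9 CPM in control and 0.0888, 0.136 and 0.176 CPM with the inhibitor. They were also low at 16 h without inhibitor, at 0.0143, 0.495 and 0.0354 CPM. Angptl2 and Errfi1 stood at 27.3 and 43.3 CPM there.

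Products that define the fibroblast were lower too. Of 38 measured extracellular matrix genes 35 were lower and 1 higher (median -1.76). Timp3, an inhibitor of matrix proteases, measured 2523, 2395, 2738 and 2334 CPM in control and 307, 323, 318 and 312 CPM with the inhibitor, 7.93-fold lower. Col6a1 and Col6a3, chains of collagen VI, were 12.7-fold and 6.04-fold lower, and Mmp2, a matrix protease, 6.13-fold lower. Col1a1, a chain of collagen I and also a fibroblast marker, measured 1860, 1913, 1342 and 2443 CPM in control and 727, 595, 679.8 and 576 CPM with the inhibitor; the groups did not overlap. In cytosolic RNA 35 of the 38 were lower with a median of -1.74, close to the polysome median, and the efficiency test called 9 higher and 11 lower. The genes that hydroxylate and process collagen had 12 of 15 lower (median -1.28), led by the procollagen protease Adamts2, 14.3-fold lower.

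Of 32 actin, tropomyosin and contractile genes 25 were lower and 2 higher (median -0.76). Acta2, smooth muscle actin, measured 2240, 2111, 2255 and 2179 CPM in control and 700.0, 701, 655 and 679 CPM with the inhibitor, 3.21-fold lower, and the cytoplasmic actins Actb and Actg1 were 2.44-fold and 2.87-fold lower. Against 16 h without inhibitor 21 of the 32 were higher and 10 lower, Acta2 by 2.64 on the log2 scale. For the matrix genes that test called 12 higher and 23 lower. The summed level of the fibroblast marker list moved with both groups of genes, and the part of the cells' composition in these results was not tested.

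Interferon response genes were above control. Of 27 genes 20 were higher and 5 lower, with a median of 0.98. Usp18, a brake on interferon signalling, measured 1.35, 1.51, 1.92 and 1.95 CPM in control and 15.2, 16.6, 13.6 and 15.6 CPM with the inhibitor, 9.01-fold higher. Stat2, a signal transducer of the pathway, rose 3.75-fold, and Isg15, a ubiquitin-like modifier, went from 30.9, 30.9, 30.2 and 34.2 CPM to 112.8, 114, 112.9 and 111.9 CPM, 3.58-fold higher. The listed genes Mx2 and Ifi44 went from 0.314 and 0.231 CPM to 11.9 and 6.59 CPM. Mx2 is annotated as a polymorphic pseudogene in GRCm38. At 16 h without inhibitor 24 of the 27 were higher than the same control (median 2.09), and in the direct test 19 were lower with the inhibitor and 7 higher. The immunoproteasome genes Psmb8 and Psmb9, which are on the list, were 1.66-fold and 1.59-fold lower than control.

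Other genes with the highest changes were nearly absent in control. Saa3, an acute phase protein gene, stood at 0.0655 CPM in control and 10.2 ± 0.655 CPM with the inhibitor, and Ostn, a secreted peptide gene, at 0.0650 and 10.2 ± 0.889 CPM. Sspo, B4galnt2, Avil and Car6, at 0.305, 0.112, 0.280 and 0.402 CPM in control, reached 25.9, 7.59, 10.3 and 14.8 CPM. At 16 h without inhibitor these 4 were higher still, at 62.4, 15.3, 61.9 and 36.2 CPM, and Saa3 and Ostn stood at 6.4 and 8.2 CPM. Among genes with at least 20 CPM in both groups, the highest outside the ER were Zfp367, Bnip3 and Marcksl1. Bnip3, a mitophagy receptor, measured 48.0, 44.6, 55.5 and 45.2 CPM in control and 253, 273, 268 and 282 CPM with the inhibitor, 5.57-fold higher, while 16 h without inhibitor gave 37.5 ± 0.860 CPM. Txnip, a thioredoxin-binding regulator of glucose uptake listed with NRF2-related genes, rose 7.74-fold from 13.2 ± 0.764 CPM.

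Cytosolic heat shock genes were mostly higher, 16 of 22 against 2 lower (median 0.52). The constitutive HSP70 gene Hspa8 measured 1215, 1218, 1434 and 1277 CPM in control and 3615, 3792, 3542 and 3624 CPM with the inhibitor, 2.83-fold higher. Hspa4l and Hsph1, nucleotide exchange factors of HSP70, rose 3.34-fold and 3.13-fold, and Dnaja1, an HSP40, 2.39-fold. The stress-induced Hspa1b measured 1.62, 1.74, 1.11 and 2.19 CPM in control and 18.8, 15.9, 18.1 and 14.8 CPM with the inhibitor, and 2.40 CPM without it. Its near-identical copy Hspa1a can share its reads, so both values are uncertain.

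Cell cycle genes divided by phase. Of 38 genes of DNA replication and S phase, 26 were higher and 5 lower (median 0.48), and of 29 measured genes of mitosis and G2, 5 were higher and 19 lower (median -0.54). Ccne2 (chr4:11191351-11204779, plus strand), which encodes cyclin E2 of S phase entry, measured 4.77, 4.95, 6.58 and 4.34 CPM in control and 31.6, 38.7, 36.4 and 37.2 CPM with the inhibitor, 6.98-fold higher. The replication licensing factor Cdc6 measured 12.5, 13.99, 13.0 and 12.6 and 69.1, 70.2, 67.5 and 70.5 CPM, 5.31-fold higher, Rpa2, which coats single-stranded DNA, rose 3.08-fold, and the flap nuclease gene Fen1 2.47-fold. Zfp367, a transcription factor linked to the cell cycle, rose 6.204-fold from 20.1 ± 2.35 CPM.

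On the mitotic side, Ccnb2 and Ccnb1, which encode B-type cyclins, measured 297, 297, 321 and 284 and 240.0, 230.0, 273 and 226 CPM in control and 49.5, 47.1, 47.0 and 47.0 and 59.3, 59.4, 59.6 and 60.5 CPM with the inhibitor. They were 6.29-fold and 4.06-fold lower, and Cdc20 and Bub1b, of the spindle checkpoint, 2.39-fold and 2.29-fold lower. The G1 cyclin gene Ccnd1 fell 3.04-fold, and the CDK inhibitors Cdkn2d and Cdkn2b rose 3.09-fold and 2.14-fold. In cytosolic RNA 36 of the 38 replication genes were higher and none lower. Against 16 h without inhibitor 26 of the 38 replication genes were higher and 11 lower, and 19 of the 29 mitotic genes were higher and 9 lower. The number of mitotic genes called higher than control was 1 with GC-corrected offsets, 3 without control replicate 4 and 8 with length-corrected offsets, and that of lower ones stayed between 18 and 21.

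**Figure D5:**
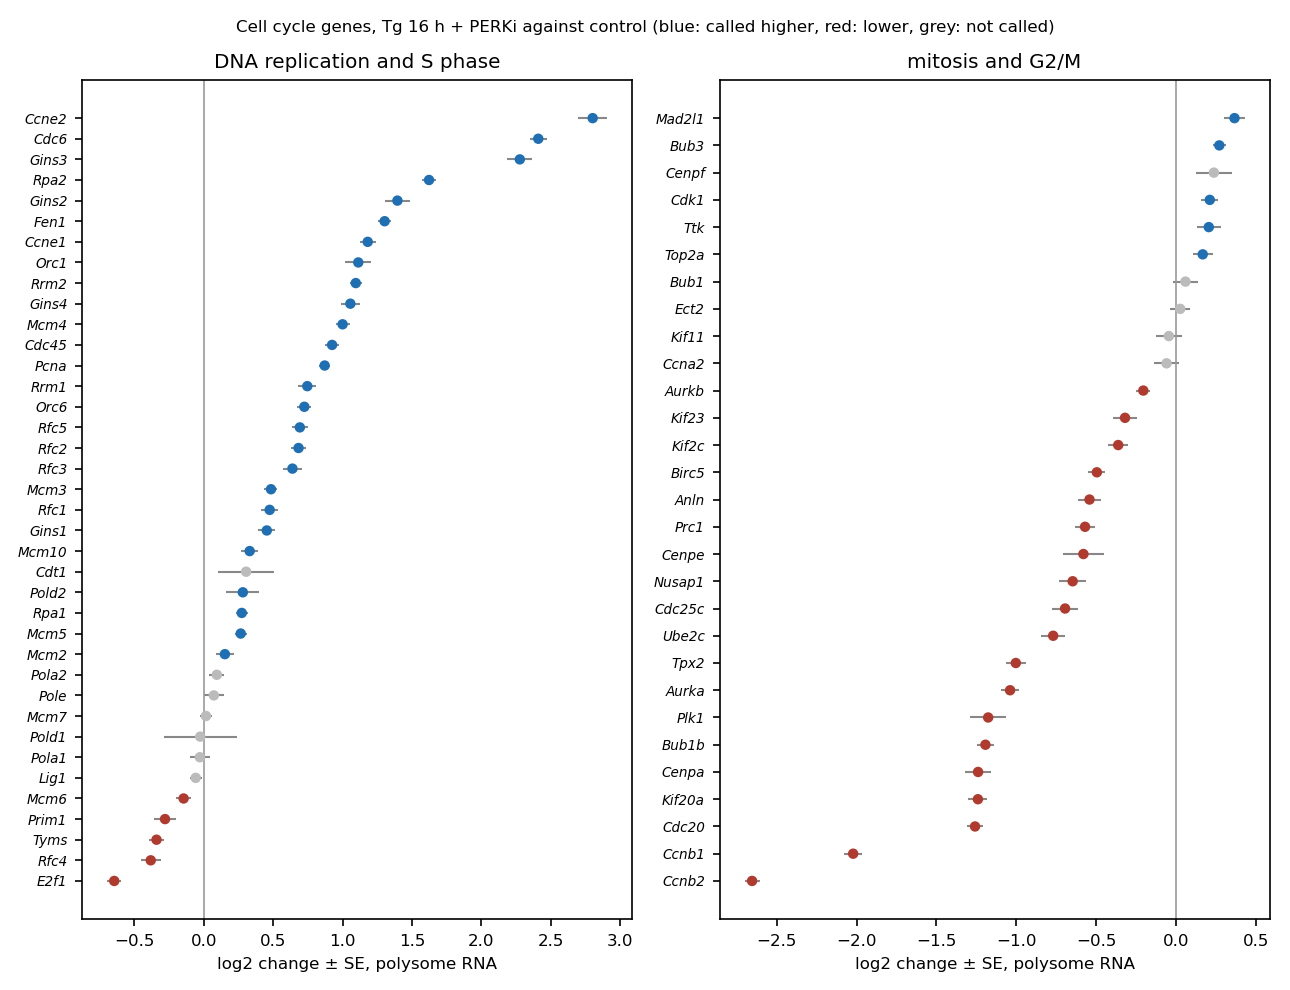
Log2 change in polysome RNA (point) with its SE (bar) for each measured gene of DNA replication and S phase (left) and of mitosis and G2 (right), with colour for the call. Replication genes reach 2.80 at Ccne2, and mitotic genes reach -2.65 at Ccnb2.

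Lipid synthesis genes were lower. Of 24 measured genes of cholesterol synthesis and uptake 23 were lower and 1 higher (median -1.18). Sqle, squalene epoxidase, measured 1026, 1059, 1147 and 1003 CPM in control and 375, 392, 383 and 402 CPM with the inhibitor, 2.73-fold lower, and Nsdhl, Cyp51 and Msmo1, later enzymes of sterol synthesis, were 4.05-fold, 3.33-fold and 3.47-fold lower. Stard4, a sterol carrier, was the member called higher, 1.58-fold, and its cytosolic RNA did not pass the test (log2 -0.16, adjusted p = 0.056 in edgeR). Of 13 fatty acid synthesis genes 10 were lower and 1 higher, with the desaturases Fads2, Scd2 and Scd1 2.68-fold, 2.20-fold and 1.95-fold lower.

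Of 32 autophagy and lysosome genes 18 were higher, 8 lower and 6 not called. Gabarapl1, an ATG8 protein of the autophagosome membrane, measured 62.2, 67.0, 70.1 and 66.2 CPM in control and 218, 226, 219.8 and 221 CPM with the inhibitor, 3.33-fold higher. The lysosomal protease gene Ctsb and the lysosomal membrane gene Lamp1 were 4.04-fold and 3.11-fold lower, and Fam134c, an ER-phagy receptor, 4.72-fold lower. Of 23 measured genes of the BCL2 family and other cell death regulators 10 were higher, 6 lower and 7 not called. Bid, a BH3-only gene, rose 1.45-fold, and the antiapoptotic Mcl1 was 1.73-fold lower. Glycolysis genes had 8 higher and 9 lower of 20 measured, and p53 targets 7 higher and 4 lower of 18.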

How the data were processed

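The authors deposited a table of raw read counts per gene for 32 MEF libraries, listing 20234 genes. The libraries were made with TruSeq, per the labels. HISAT, the mm10 build and DESeq2 1.9.23 are named in the submitters' processing notes. Counter, strand setting and annotation were not given in sources used here, so overlapping genes and paralogs are uncertain. Nothing in the labels states that the 4 replicates are separate cultures, so p-values measure only the spread between these libraries, which may be technical.

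Levels are CPM values scaled by TMM over the 16 polysome libraries. The main test was edgeR's quasi-likelihood test (edgeR 4.0.16, limma 3.58.1, R 4.3.3) over those 16 libraries with 1 term per group, with Benjamini-Hochberg adjustment over all genes tested and a call at adjusted p below 0.05. Genes with enough counts for edgeR's default filter were kept. Translational efficiency was the interaction of group and RNA kind in 1 fit over both kinds of library, with the sample as a block. The labels do not say that a replicate number marks a shared culture or day, so the main fit had no replicate block. Deviations of same-numbered control and inhibitor libraries had correlations of 0.034, 0.00144, -0.122 and -0.204. The scripts were tested on simulated data. Alternatives were other scaling factors, filters, a fit of only the 8 libraries compared, DESeq2 1.42.0, limma-voom, a replicate block, coding-length offsets, and each library left out. GC offsets were chosen after seeing the data.

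The gene lists and the comparison were chosen with earlier results of these data known. Named genes were a panel of 14 ER stress genes, the 8 highest and 8 lowest called changes among genes with at least 5 CPM in the higher group and among those with at least 20 CPM in both, the 6 highest and 6 lowest called differences from 16 h without inhibitor with at least 20 CPM in either thapsigargin group (all with libraries that did not overlap, and without clone-type symbols), and up to 4 members with the smallest p of each list. Genes named beyond these were chosen after their values were seen, and some that the rule names are not reported here.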

Additional observations from a re-analysis of the deposited data

Results flagged for a closer look

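Among 163 genes named in the text, 307 groups of 4 libraries with a mean of at least 1 CPM were checked for a library far from the other 3, and 11 groups held one. Chance flags about 1 in 20 groups. In 5 of the 11 it was control replicate 3, always as the highest: Aldh1l2 at 179 CPM (others 155 to 159), Asns at 735 CPM (659 to 661.5), Eef1g at 2180 CPM (1966 to 1993), Hsph1 at 61.5 CPM (48.0 to 50.2) and Ptgs2 at 306 CPM (246.5 to 252). In each of these genes that library lay on the same side of the inhibitor group as the other control libraries.

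The other 6 were inhibitor libraries. Replicate 1 stood apart for Ccnb2 at 49.5 CPM (others 47.0 to 47.1), replicate 2 for Lif at 1.71 CPM (2.13 to 2.18) and Sdf2l1 at 217 CPM (225.9 to 226), replicate 3 for Manf at 1028 CPM (973 to 981) and Rpa2 at 168 CPM (174 to 175), and replicate 4 for Angptl2 at 23.5 CPM (25.2 to 25.4). Over all 9340 genes with at least 5 CPM, control replicate 3 was the highest library apart in 215 and the lowest in 65.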

How the results depend on the processing

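Of the counts over all genes, 189 values under the alternatives lay within 1.5 times the reported one. The exception was the number of genes at least 2-fold higher than control, 894 as reported and 541 when at least 5 CPM in 4 libraries was required, a filter under which fewer genes were tested. With a replicate block 9155 of the 9300 calls were shared, and same-numbered libraries did not deviate together. Leaving out 1 library kept 8920 to 9013 of the calls. DESeq2 shared 9161, limma-voom 9238, coding-length offsets 8381 and GC offsets, chosen after seeing the data, 8596. Upper-quartile scaling moved the median of all genes from -0.03 to 0.07 and the share of calls that were higher from 47.8% to 54.5%. That share was 50.9% with only the 8 libraries of both groups, 51.4% with length offsets and 51% with GC offsets. For the 191 genes picked by the naming rule, 3435 values kept their direction and call, and 2 lost the call: Xbp1 with length offsets (log2 0.08) and Creb3 with GC offsets (-0.05). None reversed. Outside the rule, Jund lost its call without control replicate 3. List counts moved by over 1.5 times in 41 values and not in 1399. List medians changed sign for the proteasome (-0.02) with upper-quartile scaling (0.08) and GC offsets (0.02), for mitochondrial chaperones (-0.03) with upper-quartile scaling (0.07), length offsets (0.03) and GC offsets (0.03), for the respiratory chain (0.12 to -0.16) and BCL2 family (0.14 to -0.04) with length offsets, and for D cyclins, CDK inhibitors and Myc (0.12 to -0.06) with GC offsets; the causes were not tested. At 30.74 M counts or more per library, genes below 1 CPM had few counts, and their levels are given without a fold.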

Other observations

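Subunits of eIF4F and their regulators, which bind the mRNA cap, were not described above. Of 17 measured, 10 were higher and 5 lower than control in polysome RNA. Mknk1, a kinase of eIF4E, went from 144 ± 6.70 to 37.1 ± 1.18 CPM, and Eif4b, a helicase cofactor, from 483 ± 32.7 to 315 ± 9.34 CPM. Mitochondrial chaperones and proteases had 5 higher and 8 lower of 17, with the protease gene Htra2 going from 219 ± 14.7 to 69.4 ± 2.80 CPM and the cochaperonin gene Hspe1 from 85.0 ± 8.15 to 166 ± 7.44 CPM.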
